A study of Mus musculus with 8 samples.

Results

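The Notch genes described here were the ligands *Dll4*, *Jag1* and *Jag2*, the receptors *Notch1*, *Notch2* and *Notch3*, and the target genes *Hes1*, *Hey1*, *Heyl* and *Nrarp*. They were chosen by name and found by their Ensembl mouse gene identifiers, which gave 10 of the 56923 gene rows counted in every library. All 10 were among the 14504 genes that reached 1 CPM (reads relative to library size) in 3 or more libraries and were tested. The series profiled thymic epithelial cells (TECs) of wild-type mouse embryos by bulk RNA sequencing, with 2 libraries in each of 4 groups and no treatment named for any of them. *In vivo* TECs were sorted as EpCAM+ cells from E16.5 thymi, in a stain that also held antibodies against CD45, Ter119, CD31 and PDGF receptors, and were lysed at once. The same kind of sorted cells was grown in 2D on laminin for 3 days, or as organoids in Matrigel for 3 days (D3) or 7 days (D7), in a defined medium with FGF7 that also held thiazovivin at the start of organoid culture. The cultures thus shared the FGF7 medium, D7 organoids were grown for longer than the others, and 2D-cultured TECs have no day 7 counterpart. The labels call the libraries of a group biological replicates, the study counts its replicates in mice, and whether embryos were pooled is not given in the sources used here.

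A Notch ligand on the surface of one cell binds a Notch receptor on its neighbour, and the receptor is then cut by ADAM proteases and γ-secretase. Its intracellular domain enters the nucleus, joins RBPJ and a Mastermind protein and switches on *Hes*, *Hey* and *Nrarp* genes. In the thymus, Dll4 on cortical TECs engages Notch1 on incoming progenitors and directs them to the T-cell lineage, while Jag1 and Jag2 bind the same receptors in many other tissues. Whether the Jagged genes changed against *Dll4* between the groups was the question asked of the ligands.

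The libraries held between 5084715 and 7612532 counts, so that 3 counts, taken as the floor of detection, stood for 0.371 to 0.591 CPM. The 2 libraries of a group differed beyond sampling noise in each group (chi-square over its degrees of freedom 6.82 to 8.70). All 12 listed thymic epithelial markers were counted in every group, with *Psmb11* at 3 counts in each 2D library. Their summed level was 9040 to 9580 CPM *in vivo* and 6180 to 6990 CPM in 2D. It was 2460 to 2820 CPM in D3 organoids and 2940 to 2960 CPM in D7 organoids. The sums join genes that moved in opposite directions. Of the 12, 8 were higher in D7 organoids than in 2D (24.4% of all genes), among them *Foxn1*, *Psmb11*, *Prss16* and *Ccl25*. The 4 others, *Epcam*, *Krt8*, *Krt18* and *Krt5*, were lower (21.1% of all genes), and *Krt18* alone had 3590 and 3150 CPM in 2D. The 2 *in vivo* libraries stood apart from each other in thymocyte transcripts, which can carry Notch receptors and targets of their own. The 14 listed thymocyte markers summed to 1290 CPM in *in vivo* replicate 1 and 604 CPM in replicate 2, against 58.2 to 64.5 CPM in 2D, 36.2 to 36.6 CPM in D3 organoids and 21.4 to 27.0 CPM in D7 organoids. Of these 14 genes, 7 could be tested, and all 7 were higher *in vivo* than in each culture. None of the 14 was at 0 in both *in vivo* libraries, but *Cd4* (0 and 1 counts) and *Cd8a* (1 and 2 counts) did not reach the floor of 3 counts there. *Rag2* and *Ptcra* were at 0 in all 6 culture libraries. The 12 endothelial markers summed to 9.89 to 11.1 CPM *in vivo*, 3.26 to 3.89 CPM in 2D, 1.52 to 2.09 CPM in D3 organoids and 3.09 to 3.74 CPM in D7 organoids. Of these, *Cdh5*, *Cldn5* and *Tie1* were at 0 throughout, *Pecam1* and *Erg* were highest *in vivo*, and *Tek* was highest in D7 organoids. The 12 mesenchyme and mural markers, of which *Vtn* was at 0 throughout, summed to 73.8 to 76.9 CPM *in vivo*, 139 to 172 CPM in 2D, 22.3 to 27.1 CPM in D3 organoids and 88.3 to 98.2 CPM in D7 organoids. Of these sums, *Acta2* was 135 and 106 CPM in 2D, and *Dcn* was 53.4 and 50.8 CPM in D7 organoids.

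*Dll4* was high in TECs straight from the thymus, at or near the floor in 2D and in D3 organoids, and back at a lower level in D7 organoids. *Jag1* was lowest *in vivo* and highest in 2D, and *Jag2* was low in 2D, with levels in the organoids of both days that gave no call against those *in vivo*. Levels are CPM values scaled by TMM, and each log2 fold change is that of the group named before "over" and comes with a standard error (SE) and, from the quasi-likelihood test of edgeR, a p adjusted over all 14504 genes. In bulk samples, fewer cells that use a gene and less of its RNA per cell cannot be told apart.

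*Dll4* (chr2:119156170-119166443, plus strand, GRCm39) encodes the ligand that cortical TECs present to T-cell progenitors. It was counted 654 and 777 times in the *in vivo* libraries, which is 113 and 109 CPM. In 2D it had 3 counts in replicate 1 and 0 in replicate 2, and a count of 0 allows up to 0.556 CPM in that library. D3 organoids had 1 and 5 counts (0.168 and 0.697 CPM), and D7 organoids had 79 and 49 counts (9.77 and 9.65 CPM). The *in vivo* and D7 libraries therefore lay above every 2D and D3 library, and those of 2D and D3 overlapped. *In vivo* TECs exceeded D7 organoids by 3.52 on the log2 scale (SE 0.28, adjusted p = 3.9e-08) and D7 organoids exceeded D3 organoids by 4.36 (SE 0.48, adjusted p = 1.1e-05). The second value was 3.76 without D3 replicate 1 and 5.63 without D3 replicate 2, and the edgeR call held in both fits. Against 2D the ratio of summed counts was 404 for *in vivo* TECs (95% counting interval 138 to 1960) and 35.4 for D7 organoids (11.8 to 174), and both differences passed the edgeR test (adjusted p = 1.4e-10 and 1.2e-06). For D3 organoids over 2D the ratio was 1.66, with an interval of 0.356 to 10.3, and no difference was detectable at this depth (edgeR adjusted p = 0.62). Such intervals cover counting error only. The D7 level was 11.4-fold below the *in vivo* level in the edgeR fit. Endothelial cells also use *Dll4*, and their markers were at 9.89 to 11.1 CPM in sum *in vivo* and at 1.52 to 3.89 CPM in the cultures, with *Cdh5*, *Cldn5* and *Tie1* at 0 throughout. *Pecam1* in that list had 3.64 and 5.20 CPM *in vivo* and at most 0.556 CPM in the culture libraries, and *Erg* had 3.64 and 1.12 CPM *in vivo* and 0 CPM in the cultures. *Tek* in the same list instead had 0 CPM in both *in vivo* libraries and 0.618 and 0.985 CPM in D7 organoids. *Egfl7*, the 1 endothelial marker that could be tested, gave no call in any comparison. The part of endothelial cells in the *Dll4* levels was not tested.

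A long non-coding RNA gene on the other strand, *Gm14207*, overlaps the 5′ end of *Dll4* (chr2:119156170-119157582) and shares 616 exon bases with it. Its level was 52.7 and 69.6 CPM *in vivo*, 0 and 0 CPM in 2D, 1.18 and 0.279 CPM in D3 organoids, and 12.2 and 14.6 CPM in D7 organoids. It was thus high and low in the same groups as *Dll4*. Since the strand used in counting is not stated, reads from the shared exons of the 2 genes cannot be told apart. The libraries were made from the 3′ ends of RNA, while the overlap lies at the 5′ end of *Dll4*. How many *Dll4* reads fell in the shared exons was not measured.

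*Jag1* (chr2:136923373-136958693, minus strand) encodes a ligand of the Jagged type. Its level was 49.5 and 29.0 CPM *in vivo*, 445 and 428 CPM in 2D, 83.2 and 71.2 CPM in D3 organoids and 75.8 and 68.6 CPM in D7 organoids. Both 2D libraries stood above all others and both *in vivo* libraries below all others, while D3 and D7 organoids overlapped. *Jag1* was 11.2-fold lower *in vivo* than in 2D (log2 fold change −3.48, SE 0.22, edgeR adjusted p = 9.5e-10). D7 organoids were 6.04-fold below 2D (−2.59, SE 0.21, edgeR adjusted p = 2.3e-08) and D3 organoids 5.66-fold below it (−2.50, SE 0.20, edgeR adjusted p = 4.2e-08). *In vivo* TECs were also below D7 organoids (−0.89, SE 0.21, edgeR adjusted p = 0.0031) and D3 organoids (−0.98, SE 0.21, edgeR adjusted p = 0.0016). The first of these calls was lost without *in vivo* replicate 2, where the difference was −0.54 (edgeR adjusted p = 0.052). Between D7 and D3 organoids the difference was −0.09, with a 95% interval of −0.52 to 0.33.

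*Jag2* (chr12:112871421-112893437, minus strand) encodes the other Jagged ligand. It stood at 61.4 and 89.6 CPM *in vivo*, 1.63 and 5.56 CPM (9 and 30 counts) in 2D, 67.6 and 85.0 CPM in D3 organoids and 54.7 and 58.5 CPM in D7 organoids. The 2D libraries were far below all 6 others. The fold over 2D was 21.0 for *in vivo* TECs (log2 fold change 4.39, SE 0.35, edgeR adjusted p = 1.8e-08), 21.2 for D3 organoids (4.41, SE 0.35, edgeR adjusted p = 2.6e-08) and 15.7 for D7 organoids (3.97, SE 0.35, edgeR adjusted p = 8e-08). These values depend on which 2D library is used, and were 3.76, 3.77 and 3.34 without 2D replicate 1 and 5.51, 5.52 and 5.09 without 2D replicate 2, all still called by edgeR. No difference passed the test between *in vivo* TECs and D7 organoids (0.42, 95% interval −0.13 to 0.97), between *in vivo* TECs and D3 organoids (−0.01, −0.56 to 0.53), or between D7 and D3 organoids (−0.43, −0.98 to 0.11).

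**Figure D1:**
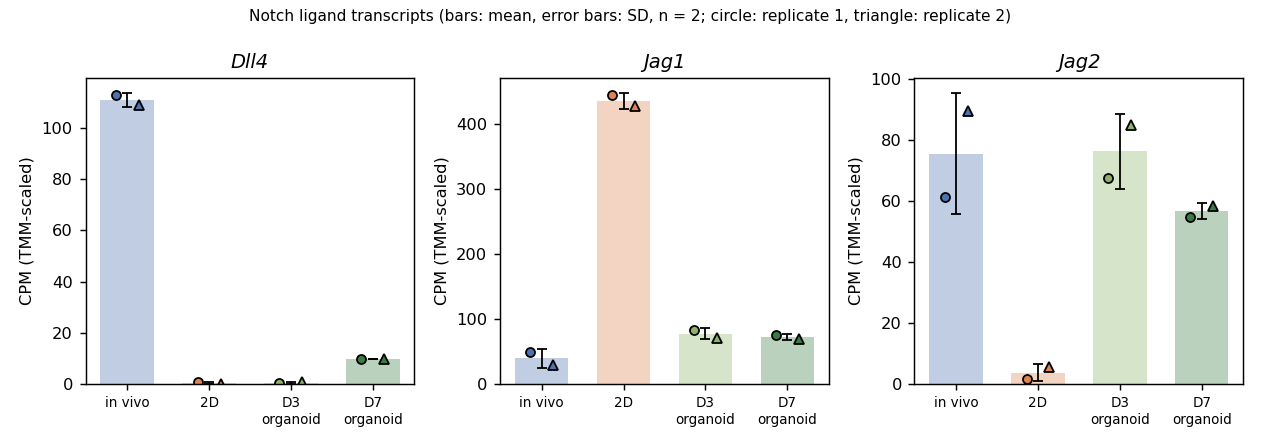
TMM-scaled CPM of *Dll4*, *Jag1* and *Jag2* in the 4 groups, with bars for the mean of 2 libraries, error bars for the SD (cut off at 0) and a circle and a triangle for replicates 1 and 2. *Dll4* is highest *in vivo* (109 and 113 CPM), *Jag1* in 2D (428 and 445 CPM), and *Jag2* is low in 2D alone among the 4 groups.

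The balance between Jagged genes and *Dll4* was measured within each library as the log2 ratio of their counts, with 0.5 counts added to each, so that library size does not enter. Ratios are read as changes between groups and not as a ranking of the genes. For *Jag1* the ratio was −1.20 and −1.91 *in vivo*, 9.45 and 12.18 in 2D, 8.36 and 6.54 in D3 organoids, and 2.95 and 2.82 in D7 organoids. No group overlapped another, and the order of the groups from low to high was *in vivo*, D7, D3 and 2D. For *Jag2* the ratio was −0.88 and −0.29 *in vivo*, 1.44 and 5.93 in 2D, 8.06 and 6.79 in D3 organoids, and 2.48 and 2.59 in D7 organoids. Here *in vivo* TECs were again lowest and D3 organoids highest, and the 2D libraries lay on either side of D7 organoids. For both genes the 2D and D3 ratios depend on the 0.5 counts added. *Dll4* had only 3 and 0 counts in 2D and 1 and 5 counts in D3 organoids, with no detectable difference between these groups. An exact permutation test of the differences among the 4 groups, which has 105 partitions of the libraries, gave p = 0.0095 for *Jag1*, the smallest it can give, and p = 0.029 for *Jag2* (adjusted over the 2 ratios, 0.019 and 0.029). Between any pair of groups the exact test cannot go below p = 0.333, so no pair was tested. The *Jag1* test stayed at an adjusted p of 0.019 to 0.038 with each library left out in turn. That of *Jag2* went to between 0.12 and 0.19 in the exact permutation test without any single *in vivo*, D3 or D7 library, and to 0.019 without either 2D library.

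*Dll4* made up 50.6% and 48.0% of the reads counted on the 3 ligands in the *in vivo* libraries, or 49.1% of the 2913 reads of both (exact binomial 95% interval 47.3 to 51.0%). In 2D its share was 0.0624% of 4806 reads (0.0129 to 0.182%), in D3 organoids 0.297% of 2022 reads (0.109 to 0.645%) and in D7 organoids 7% of 1828 reads (5.87 to 8.27%). The 2D libraries gave 0.122% and 0%, the D3 libraries 0.112% and 0.444%, and the D7 libraries 6.97% and 7.06%. The pooled shares of 2D and D3 therefore rest mostly on the few *Dll4* reads of 1 library each. The binomial intervals cover counting error only and leave out the spread between libraries of a group. The ratio of *Jag2* to *Jag1* also differed between groups, with log2 values of 0.31 and 1.63 *in vivo*, −8.01 and −6.24 in 2D, −0.30 and 0.26 in D3 organoids and −0.47 and −0.23 in D7 organoids. The 2D libraries lay below the 6 others in that ratio.

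**Figure D2:**
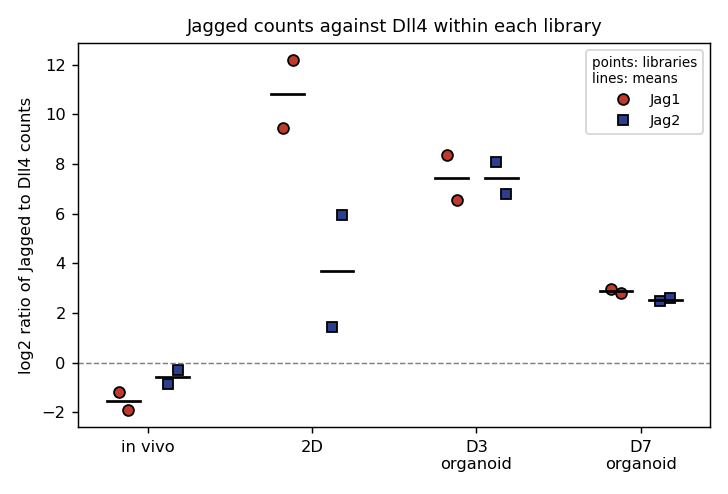
Log2 ratio of *Jag1* (circles) and *Jag2* (squares) counts to *Dll4* counts in each library, with 0.5 counts added to each gene and lines for the mean of 2 libraries. *In vivo* libraries lie below 0 (equal counts), at −1.91 to −0.29, and all 6 culture libraries lie above it.

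Among the receptors, *Notch1* was higher in organoids of both days than *in vivo* and lowest in 2D, and *Notch2* was lower in D7 organoids than in any other group. *Notch3* was between 10.7 and 30.3 CPM in all libraries. *Notch1* (chr2:26347915-26406675, minus strand) is the receptor through which thymocyte progenitors read Dll4. Its level was 123 and 100 CPM *in vivo*, 47.0 and 60.8 CPM in 2D, 269 and 312 CPM in D3 organoids, and 202 and 263 CPM in D7 organoids. The *in vivo* libraries lay between those of 2D and those of the organoids without overlap. Between D7 and D3 organoids the difference did not pass the test (−0.32, 95% interval −0.70 to 0.06). *Notch1* was higher in D7 organoids than in 2D by 2.11 (SE 0.19, edgeR adjusted p = 1.2e-07) and than *in vivo* by 2.08-fold (log2 fold change of *in vivo* over D7 −1.06, SE 0.18, edgeR adjusted p = 0.00024). D3 organoids exceeded 2D by 2.43 (SE 0.19, edgeR adjusted p = 2.8e-08) and *in vivo* TECs by 2.60-fold (−1.38, SE 0.18, edgeR adjusted p = 1.8e-05). *In vivo* TECs exceeded 2D by 1.05 (SE 0.19, edgeR adjusted p = 0.00024). The thymocyte markers were at 604 to 1290 CPM *in vivo*, 58.2 to 64.5 CPM in 2D and 21.4 to 36.6 CPM in organoids, and their part in the *Notch1* levels was not tested.

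*Notch2* (chr3:97920800-98057677, plus strand) encodes a receptor with wide use in epithelia. It was counted at 45.5 and 47.5 CPM *in vivo*, 57.3 and 52.6 CPM in 2D, 36.7 and 36.2 CPM in D3 organoids and 26.6 and 21.7 CPM in D7 organoids. The groups did not overlap, and the order ran from 2D down to D7 organoids. *Notch2* in D7 organoids fell 2.26-fold below 2D (log2 fold change −1.18, SE 0.20, edgeR adjusted p = 0.00013) and 1.92-fold below *in vivo* TECs (0.94 for *in vivo* over D7, SE 0.20, edgeR adjusted p = 0.0014). The step from D3 to D7 (−0.59, SE 0.20, edgeR adjusted p = 0.045) and that from 2D to D3 (−0.59, SE 0.19, edgeR adjusted p = 0.023) were called, but the first call was lost without either 2D, either D3 or either D7 library (edgeR adjusted p up to 0.33) and the second without either 2D or either D3 library (up to 0.11). Neither *in vivo* TECs against 2D (−0.24, 95% interval −0.65 to 0.16) nor against D3 organoids (0.35, −0.06 to 0.76) gave a call.

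*Notch3* (chr17:32339794-32385893, minus strand) encodes a receptor used by mural cells and developing thymocytes. Its level was 18.2 and 10.7 CPM *in vivo*, 18.1 and 23.0 CPM in 2D, 30.3 and 24 CPM in D3 organoids, and 23.1 and 26.2 CPM in D7 organoids. The *in vivo* libraries lay below those of the organoids. Over 2D, the value was 0.26 for D7 organoids (95% interval −0.32 to 0.84) and 0.40 for D3 organoids (−0.18 to 0.98), and neither was called. *In vivo* TECs were lower than D7 organoids by −0.78 (SE 0.28, edgeR adjusted p = 0.039) and than D3 organoids by −0.92 (SE 0.28, edgeR adjusted p = 0.020). Without *in vivo* replicate 2 these values were −0.43 and −0.58 and no longer passed (edgeR adjusted p = 0.28 and 0.17). The call against D7 organoids was also lost without 2D replicate 2, D3 replicate 1 or either D7 library, and that against D3 organoids without D3 replicate 1. Over 16 alternative fits, with other processing or a library left out, the call against D7 organoids was lost in 7. That against D3 organoids was lost in 2. Without *in vivo* replicate 1, the library with more thymocyte transcripts, the value against 2D became −0.94 and passed (edgeR adjusted p = 0.026). The mesenchyme and mural markers summed to 73.8 to 76.9 CPM *in vivo*, 139 to 172 CPM in 2D (of which *Acta2* was 135 and 106 CPM), 22.3 to 27.1 CPM in D3 organoids and 88.3 to 98.2 CPM in D7 organoids (of which *Dcn* was 53.4 and 50.8 CPM). The pericyte gene *Rgs5* had 25.0 and 23.8 CPM *in vivo*, 0.363 and 0.556 CPM in 2D, 0.505 and 0.557 CPM in D3 organoids, and 10.5 and 12.0 CPM in D7 organoids. Other genes of that list differed from it. *Cspg4* had 0 and 0.281 CPM *in vivo*, 0.181 and 0 CPM in 2D, 2.02 and 1.53 CPM in D3 and 3.09 and 2.17 CPM in D7 organoids. *Pdgfrb* had 8.16 and 4.22 CPM *in vivo* and at most 0.37 CPM in any culture library. The part of mural cells and thymocytes in the *Notch3* levels was not tested. For *Notch1* over *Notch2*, the log2 count ratio was 1.44 and 1.08 *in vivo*, −0.29 and 0.21 in 2D, 2.87 and 3.1 in D3 organoids, and 2.92 and 3.60 in D7 organoids. Organoids of both days therefore lay above both other groups in this ratio.

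**Figure D3:**
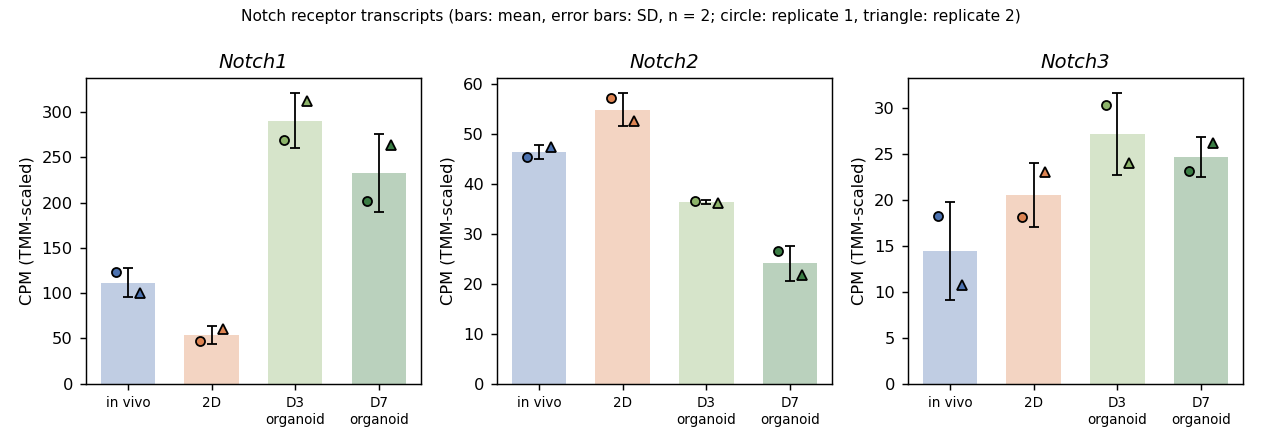
TMM-scaled CPM of *Notch1*, *Notch2* and *Notch3* in the 4 groups, with bars for the mean of 2 libraries, error bars for the SD and a circle and a triangle for replicates 1 and 2. *Notch1* is highest in the organoids (202 to 312 CPM), *Notch2* is lowest in D7 organoids (21.7 and 26.6 CPM), and *Notch3* stays between 10.7 and 30.3 CPM.

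The 4 target genes did not move together. *Hes1* was lowest in D7 organoids, and *Nrarp* was lower in organoids of both days than elsewhere. *Hey1* had overlapping levels in D7 organoids and *in vivo* and was lowest in 2D, and *Heyl* was highest *in vivo* and lowest in D3 organoids. *Hes1* is shown with 100 bases of its promoter because it holds 2 copies of TGGGAA, the core of the site that RBPJ binds, within 250 bases before the start of its canonical GENCODE transcript. Both strands were searched. That 6-base motif is found in 22.7% of 21757 such windows of protein-coding genes, and at least 2 copies are found in 3.06% of them. In the stretch below, read 5′ to 3′ on the strand of the gene from GRCm39, capitals mark the motif.
*Hes1* (chr16:29884027-29884126, plus strand): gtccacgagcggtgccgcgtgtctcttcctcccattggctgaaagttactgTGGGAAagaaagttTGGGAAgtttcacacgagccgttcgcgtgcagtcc
The copies lie 49 to 44 and 35 to 30 bases before the start. The longer GTGGGAA, which contains TGGGAA, occurs in 5.47% of the windows and includes the outer *Hes1* copy. A match describes these letters only, and no binding was measured.

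*Hes1* (chr16:29882134-29886643, plus strand) encodes a repressor that is a common first target of Notch and of other signals. It stood at 640 and 435 CPM *in vivo*, 281 and 233 CPM in 2D, 179 and 186 CPM in D3 organoids and 89.0 and 55.0 CPM in D7 organoids. The groups did not overlap, and from high to low they stood in the order *in vivo*, 2D, D3 and D7. The step from 2D to D3 did not pass the test (−0.50, SE 0.21, edgeR adjusted p = 0.073), but it passed without *in vivo* replicate 1 or either D7 library. *Hes1* was 7.41-fold higher *in vivo* than in D7 organoids (log2 fold change 2.89, SE 0.23, edgeR adjusted p = 3.6e-08), 2.95-fold higher than in D3 organoids (1.56, SE 0.21, edgeR adjusted p = 2.4e-05) and 2.09-fold higher than in 2D (1.06, SE 0.21, edgeR adjusted p = 0.00059). D7 organoids were below 2D by −1.83 (SE 0.22, edgeR adjusted p = 3.4e-06) and below D3 organoids by −1.33 (SE 0.22, edgeR adjusted p = 0.00045). Thymocyte markers were also highest *in vivo*, and in replicate 1 they were at 1290 CPM beside 640 CPM of *Hes1*. Without that replicate the edgeR log2 fold changes were 0.76 over 2D, 1.26 over D3 and 2.59 over D7 organoids. Those values rest on replicate 2 alone *in vivo*, which held 604 CPM of thymocyte markers. The part of thymocytes in the *Hes1* levels was not tested.

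*Hey1* (chr3:8726956-8732385, minus strand) encodes a related repressor of the Hey family. Its level was 182 and 162 CPM *in vivo*, 18.7 and 15.4 CPM in 2D, 103 and 108 CPM in D3 organoids, and 178 and 172 CPM in D7 organoids. Only the *in vivo* and D7 libraries overlapped among the 4 groups. Over 2D, *Hey1* was 10.3-fold higher in D7 organoids (log2 fold change 3.36, SE 0.18, edgeR adjusted p = 2.3e-10), 6.18-fold higher in D3 organoids (2.63, SE 0.18, edgeR adjusted p = 5e-09) and 10.1-fold higher *in vivo* (3.33, SE 0.18, edgeR adjusted p = 2.1e-10). From D3 to D7 it rose by 0.73 (SE 0.16, edgeR adjusted p = 0.0035). *In vivo* TECs differed from D7 organoids by −0.03, with a 95% interval of −0.36 to 0.30. Set against *Hes1* within a library, the log2 count ratio of *Hey1* was −1.81 and −1.43 *in vivo*, −3.91 and −3.92 in 2D, −0.79 and −0.79 in D3 organoids, and 1 and 1.65 in D7 organoids. No group overlapped another in this ratio, and D7 organoids were the only group of the 4 in which *Hey1* reads outnumbered *Hes1* reads.

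*Heyl* (chr4:123127349-123143682, plus strand), a further gene of the Hey family, had 12.3 and 13.4 CPM *in vivo*, 2.72 and 1.30 CPM in 2D, 0.674 and 0.279 CPM in D3 organoids, and 4.33 and 5.32 CPM in D7 organoids. These levels are low, and in D3 organoids they were close to the floor. *Heyl* was higher *in vivo* than in 2D by 2.66 (SE 0.55, edgeR adjusted p = 0.00089) and than in D3 organoids by 4.74 (SE 0.66, edgeR adjusted p = 2.8e-05), and it was higher in D7 than in D3 organoids by 3.32 (SE 0.68, edgeR adjusted p = 0.0024). Leaving out a 2D or D3 library moved them to between 2.23 and 3.28, 4.15 and 5.43, and 2.73 and 4.01. The calls of *in vivo* TECs over D7 organoids (1.42, edgeR adjusted p = 0.037) and of D3 organoids under 2D (−2.08, edgeR adjusted p = 0.034) depended on single libraries. The first was lost without any 1 of the *in vivo* or D7 libraries (edgeR adjusted p up to 0.21), and the second without 2D replicate 1 or D3 replicate 2 (0.24 and 0.19). The mesenchyme and mural markers summed to 73.8 to 76.9 CPM *in vivo*, 139 to 172 CPM in 2D, 22.3 to 27.1 CPM in D3 organoids and 88.3 to 98.2 CPM in D7 organoids. *Acta2* made up 135 and 106 CPM of the 2D sums, and *Dcn* 53.4 and 50.8 CPM of the D7 sums. The part of mural cells in the *Heyl* levels was not tested.

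*Nrarp* (chr2:25070770-25073351, plus strand) encodes a small protein that Notch induces and that dampens Notch signalling. It was counted at 33.7 and 19.4 CPM *in vivo*, 38.8 and 22.6 CPM in 2D, 7.08 and 4.32 CPM in D3 organoids, and 4.70 and 2.17 CPM in D7 organoids. *In vivo* and 2D libraries overlapped, as did D3 and D7 libraries, and every organoid library lay below every other library. *In vivo* TECs exceeded D7 organoids by 2.87 (SE 0.41, edgeR adjusted p = 4.1e-05) and D3 organoids by 2.22 (SE 0.39, edgeR adjusted p = 0.00034). Against 2D, D7 organoids fell by 3.09 (SE 0.41, edgeR adjusted p = 1.2e-05) and D3 organoids by 2.44 (SE 0.39, edgeR adjusted p = 9.6e-05). Without D7 replicate 1 the values for D7 organoids were 3.60 for *in vivo* TECs over D7 and −3.81 for D7 over 2D. *In vivo* TECs and 2D gave −0.22, with a 95% interval of −0.95 to 0.52. Thymocyte markers, 604 to 1290 CPM *in vivo*, were 58.2 to 64.5 CPM in 2D and 21.4 to 36.6 CPM in organoids. Their part in the *Nrarp* levels was not tested.

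**Figure D4:**
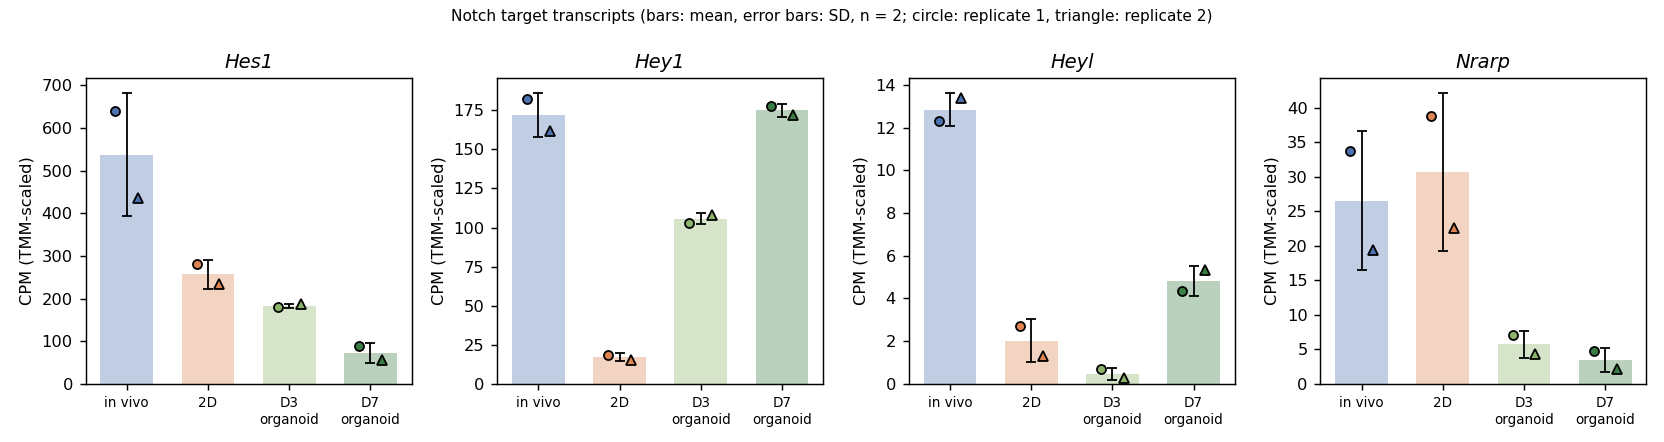
TMM-scaled CPM of *Hes1*, *Hey1*, *Heyl* and *Nrarp* in the 4 groups, with bars for the mean of 2 libraries, error bars for the SD and a circle and a triangle for replicates 1 and 2. *Hes1* falls from 435 and 640 CPM *in vivo* to 55.0 and 89.0 CPM in D7 organoids, whereas *Hey1* is at 162 to 182 CPM in both of these groups and at 15.4 and 18.7 CPM in 2D.

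Counted over the 10 genes, 8 differed between *in vivo* TECs and D7 organoids, where 34.8% of all genes tested were called. Of these, *Dll4*, *Notch2*, *Hes1*, *Heyl* and *Nrarp* were higher *in vivo* (16.8% of all genes) and *Jag1*, *Notch1* and *Notch3* were lower (18% of all genes). Between *in vivo* TECs and D3 organoids 8 also differed, beside 28.2% of all genes, with *Hey1* in the place of *Notch2* (14% of all genes higher and 14.1% lower *in vivo*). *In vivo* TECs and 2D differed in 7 genes, beside 41.6% of all genes, of which *Jag1* was lower (19.9%) and the 6 others, *Dll4*, *Jag2*, *Notch1*, *Hes1*, *Hey1* and *Heyl*, were higher (21.7%). D7 organoids differed from 2D in 8 genes, beside 45.5% of all genes, with *Dll4*, *Jag2*, *Notch1* and *Hey1* higher (24.4%) and *Jag1*, *Notch2*, *Hes1* and *Nrarp* lower (21.1%). D3 organoids differed from 2D in 7 genes, beside 38.3% of all genes, with *Jag2*, *Notch1* and *Hey1* higher (19.3%) and *Jag1*, *Notch2*, *Heyl* and *Nrarp* lower (19.1%). Between D7 and D3 organoids 5 genes differed, beside 20.8% of all genes, with *Dll4*, *Hey1* and *Heyl* higher at D7 (10.9%) and *Notch2* and *Hes1* lower (9.9%). The median log2 fold change of the 10 genes was 1.06 for *in vivo* TECs over 2D, 0.68 over D7 organoids and 0.52 over D3 organoids, where the medians of all genes were 0.06, −0.01 and 0.01. It was 0.76 for D7 organoids over 2D, −0.05 for D3 organoids over 2D and −0.23 for D7 over D3 organoids, where all genes gave 0.10, 0.02 and 0.06. With count ratios in place of the fitted *Dll4* values against 2D, these medians did not move. Between groups, libraries stood apart without overlap for 8 of the 10 genes in *in vivo* TECs against 2D (69.6% of all genes), 9 between *in vivo* TECs and D7 organoids (69.9%), 9 between *in vivo* TECs and D3 organoids (61.7%), 10 between D7 organoids and 2D (75.8%), 9 between D3 organoids and 2D (69.2%) and 7 between D7 and D3 organoids (64.7%). The comparisons share libraries, so their counts are not independent of each other.

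**Figure D5:**
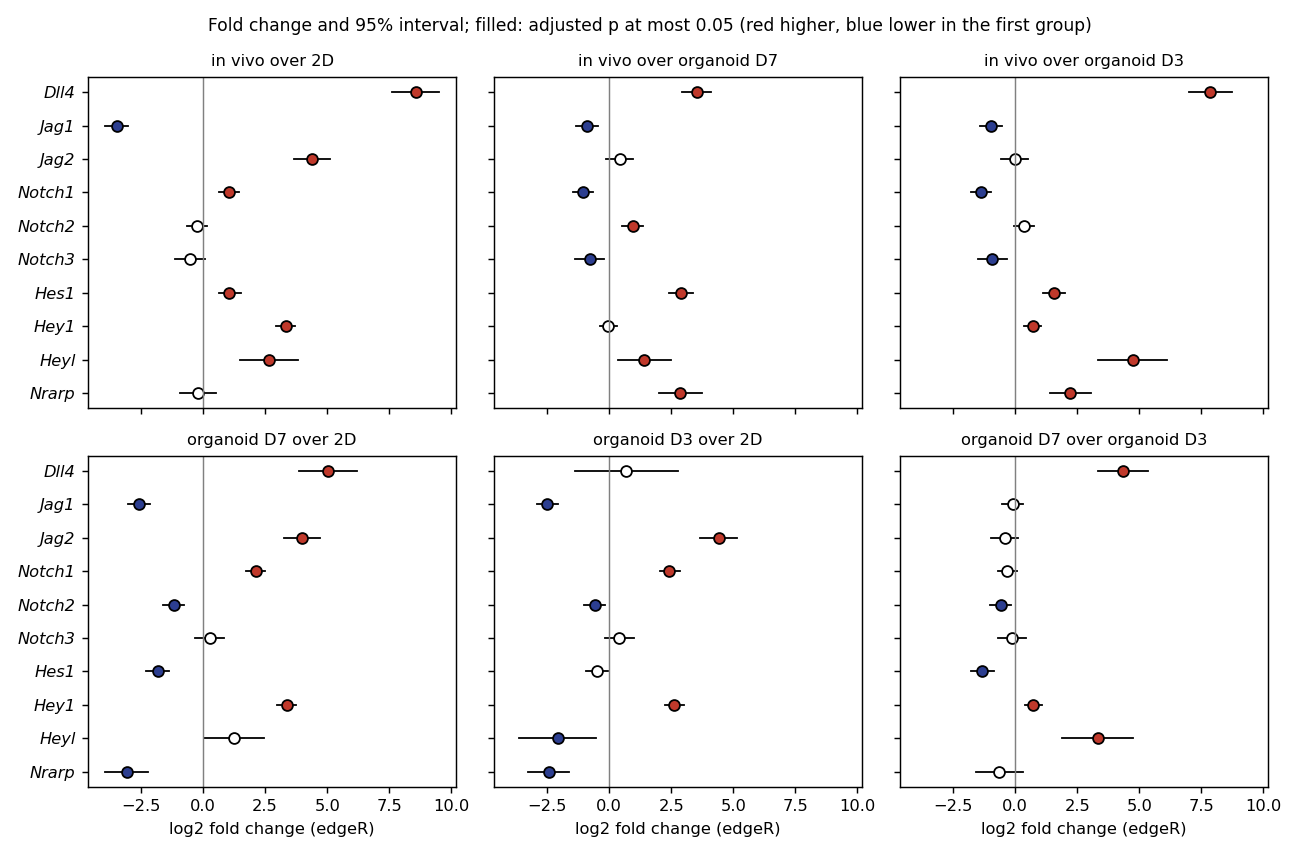
Log2 fold changes of the 10 genes from the edgeR fit in the comparisons between groups, with 95% intervals and filled symbols for an adjusted p of at most 0.05. *Jag1* lies below 0 for *in vivo* TECs and organoids over 2D (−3.48 to −2.50), *Jag2* above it (3.97 to 4.41), and the *Dll4* values against 2D depend on the prior count because 2D had 3 and 0 counts.

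Of 54 other genes of the Notch pathway, listed by role, 48 could be tested. Between *in vivo* TECs and D7 organoids 15 of the 48 were called, 5 higher and 10 lower *in vivo*, and between *in vivo* TECs and D3 organoids 15, 7 higher and 8 lower. *In vivo* TECs and 2D differed in 22, 13 higher and 9 lower. D7 organoids differed from 2D in 27 (18 higher and 9 lower), D3 organoids from 2D in 19 (11 and 8), and D7 from D3 organoids in 12 (9 and 3). As shares of those tested these are 31.2%, 31.2%, 45.8%, 56.2%, 39.6% and 25.0%, beside 34.8%, 28.2%, 41.6%, 45.5%, 38.3% and 20.8% of all genes.

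Of the other ligands, 3 of 5 could be tested, and the non-canonical ligand *Dlk2* was higher than in 2D in each of the 3 other groups. *Dlk2* had 14.9 and 16.9 CPM *in vivo*, 0 and 0.185 CPM (0 and 1 counts) in 2D, 7.08 and 5.57 CPM in D3 organoids and 5.32 and 4.53 CPM in D7 organoids. Its ratio of summed counts *in vivo* over 2D was 175, with a counting interval of 31.0 to 6930 (edgeR adjusted p = 5.1e-07). *Notch4*, the remaining receptor, was at most 2.19 CPM in any library. Of 4 genes whose products help ligands to be taken into the cell, *Neurl1b* had 6.94 and 5.06 CPM *in vivo*, 1.09 and 0 CPM in 2D, 8.59 and 7.52 CPM in D3 organoids and 16.8 and 20.1 CPM in D7 organoids. *Neurl1a*, its relative, was low *in vivo* and in D3 organoids (0 to 0.844 CPM) and higher in 2D and D7 organoids (6.48 to 9.43 CPM). *Mib2*, which encodes another ubiquitin ligase of this group, was highest in D7 organoids (13.2 and 13.2 CPM, against 3.30 to 6.74 CPM elsewhere) and rose over 2D by 1.77 (edgeR adjusted p = 0.0026).

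Among 4 tested genes for enzymes that glycosylate the receptors, all 4 were higher in D7 organoids than in 2D, beside 24.4% of all genes, and 0 to 2 were called in each other comparison (edgeR). The other listed gene of this role, the Fringe gene *Mfng*, was left out by the low-count filter and not tested. It had 4.51 and 2.53 CPM *in vivo* and at most 0.279 CPM in any culture library. *Lfng*, which encodes the Fringe enzyme that favours Delta over Jagged ligands, had 1.04 and 1.55 CPM *in vivo*, 1.81 and 1.67 CPM in 2D, 0.674 and 0.697 CPM in D3 organoids and 5.69 and 8.67 CPM in D7 organoids. It was higher at D7 than at D3 by 3.34 (SE 0.78, edgeR adjusted p = 0.0059). *Rfng*, another Fringe gene, was lowest in 2D (3.63 and 2.41 CPM, against 12.1 to 17.9 CPM in the 6 other libraries), as was *Pofut1*, which encodes the enzyme that adds O-fucose to Notch (17.4 and 23.5 CPM in 2D, 29.8 to 36.6 CPM elsewhere). Of 10 genes for cleavage of the receptor, 4 were lower *in vivo* than in 2D, 3 lower than in D7 organoids and 4 lower than in D3 organoids, beside 19.9%, 18% and 14.1% of all genes. *Furin*, for the protease that cuts Notch on its way to the surface, had 23.4 and 22.2 CPM *in vivo*, 215 and 213 CPM in 2D, 41.3 and 36.9 CPM in D3 organoids and 73.6 and 79.6 CPM in D7 organoids. It was highest in 2D, as *Jag1* was, and 9.38-fold lower *in vivo* than there (log2 fold change −3.23, SE 0.18, edgeR adjusted p = 2.1e-10). The γ-secretase genes *Psen2* (3.37 and 4.68 CPM *in vivo*, 16.4 and 17.1 CPM in D7 organoids) and *Aph1b* (9.84 and 12.7 CPM, 35.9 and 38.0 CPM) were lower *in vivo* than in D7 organoids by −2.06 and −1.72 (edgeR adjusted p = 0.00046 and 4.7e-05).

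Of 7 genes of the nuclear complex, the Mastermind genes *Maml2* and *Maml3* were higher than in 2D in each of the 3 other groups. *Maml2* had 26.7 and 33.6 CPM *in vivo*, 12.1 and 18.7 CPM in 2D, 41.4 and 55.9 CPM in D3 organoids and 67.9 and 77.4 CPM in D7 organoids, and *Maml3* had 25.6 and 28 CPM in 2D and 52.4 to 82.5 CPM elsewhere. *Maml1* went the other way between D7 organoids and 2D (log2 fold change −1.42, edgeR adjusted p = 0.011). Of 7 corepressor genes, 1 to 3 (14.3 to 42.9%) were called in each comparison, beside 20.8 to 45.5% of all genes. *Tle3* was lower in 2D (47.0 and 50.8 CPM) than elsewhere (81.6 to 113 CPM), and *Ctbp1* and *Hdac1* were below their D3 level in D7 organoids by −0.83 and −0.77 (edgeR adjusted p = 0.0028 and 0.0073).

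Among 9 genes for receptor turnover and inhibitors, *Dtx1*, a Notch target and regulator that thymocytes also use, had 35.9 and 20.1 CPM *in vivo*, 0 and 0 CPM in 2D, 0.168 and 0 CPM in D3 organoids, and 1.11 and 0.197 CPM in D7 organoids. It was at least 51.0-fold higher *in vivo* than in 2D, with 2D set to 3 counts per library (edgeR adjusted p = 7.6e-07). Thymocyte markers summed to 1290 and 604 CPM in the *in vivo* libraries, and their part in the *Dtx1* levels was not tested. *Dtx4*, of the same family, was instead highest in 2D (72.3 and 71.1 CPM) and lowest in D3 organoids (15.3 and 14.8 CPM), with 38.7 to 49.5 CPM in the other libraries. *Numbl*, whose product inhibits Notch, was also highest in 2D (16.1 and 19.3 CPM, against 3.06 to 9 CPM elsewhere). Of the 6 other genes of the Hes and Hey family 3 could be tested. *Hes6*, whose product opposes Hes1, had 556 and 637 CPM *in vivo*, 44.1 and 52.0 CPM in 2D, 56.1 and 63.5 CPM in D3 organoids and 132 and 162 CPM in D7 organoids. It was 12.4-fold higher *in vivo* than in 2D (log2 fold change 3.63, SE 0.18, edgeR adjusted p = 6.7e-11) and rose from D3 to D7 by 1.29 (SE 0.17, edgeR adjusted p = 6.5e-05). *Hey2* had 1.74 and 1.12 CPM *in vivo*, 0.725 and 1.11 CPM in 2D, 3.71 and 5.57 CPM in D3 organoids and 13.5 and 12.6 CPM in D7 organoids, so that it was highest in D7 organoids, 9.12-fold over *in vivo* TECs (log2 fold change of *in vivo* over D7 −3.19, SE 0.55, edgeR adjusted p = 0.00023).

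The genes most like 4 of the Notch genes were taken by Pearson's r of log2 CPM over the 8 libraries, among 10361 genes with a mean of at least 10 CPM in their highest group. The 8 points fall into 4 groups of 2 libraries, so r mostly describes the order of the groups. *Dll4* was most like *Rasgef1b*, *Rcn3*, *Fgf14*, *Clic5* and *Foxn1*, the master transcription factor of TECs (r = 0.989 to 0.992). *Foxn1* had a mean of 248 CPM *in vivo*, 6.67 CPM in 2D, 9.19 CPM in D3 organoids and 72.7 CPM in D7 organoids. *Jag1* was most like *Adamts5*, *Adgre5*, *Sox4*, *Cmas* and *Ammecr1* (r = 0.991 to 0.994), all highest in 2D. For *Jag2* the genes were *Megf6*, *Sema6d*, *Rtel1*, *Chst15* and *Bcl7c* (r = 0.987 to 0.998), all lowest in 2D. Among the 5 genes most like *Hes1* were *Eif3e*, *Socs3*, *Ark2n* and *Rbm7* (r = 0.987 to 0.994). *Socs3*, a feedback inhibitor of cytokine signalling, had 236 CPM *in vivo*, 64.5 CPM in 2D, 26.6 CPM in D3 organoids and 6.99 CPM in D7 organoids, the same order as *Hes1*. Among the 10 Notch genes themselves, r was −0.938 between *Jag1* and *Jag2*, −0.947 between *Jag1* and *Hey1*, 0.924 between *Jag2* and *Hey1*, 0.895 between *Dll4* and *Heyl*, and 0.302 between *Dll4* and *Hes1*. *Nrarp* had r of 0.923 with *Notch2*, −0.868 with *Notch1* and 0.863 with *Hes1*. No pair left out here had an absolute r above 0.863.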

How the data were processed

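Bulk RNA was measured in 8 mouse TEC libraries by QuantSeq, which sequences the 3′ ends of polyadenylated RNA. The authors aligned the reads to GRCm39 and deposited whole-number counts of reads per Ensembl gene, with no normalization. The annotation release and the strand used in counting are not given in the sources used here. The submitters' processing notes name R 4.1.2, edgeR and limma.

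Genes were placed with a GENCODE annotation of GRCm39, and groups came from the sample labels. Genes reaching 1 CPM of the plain library total in 3 or more libraries were kept. This filter replaced one on TMM-scaled CPM after results had been seen, to match earlier processing of the series. Counts were scaled by TMM (factors 0.880 to 1.09), and the 6 comparisons were tested by edgeR 4.0.16 (quasi-likelihood test, R 4.3.3) in 1 model of all libraries, with Benjamini-Hochberg adjustment over 14504 genes and calls at an adjusted p of at most 0.05. The scripts were tested on simulated counts. With 2 libraries per group, the p-values rest on a variance shared across genes and groups. At this depth 3 counts, the floor of detection, were 0.371 to 0.591 CPM.

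The Notch genes, lists and tests were chosen with earlier results of these data known. In each role up to 3 pathway genes were named, those with the largest absolute log2 fold change among genes called in at least 1 comparison and with at least 5 CPM in both libraries of a group. No 50-base word in the last 500 bases of the 10 genes' transcripts occurred in another gene, and genes overlapping members other than *Dll4* had at most 27 counts. Alternatives were DESeq2 1.42.0 (size factors and Wald test), limma-voom (limma 3.58.1), no normalization beyond library size, other filters on low counts, the 18S gene left out (16.6 to 24.3% of counts), calls that also needed an absolute log2 fold change of 1, a replicate block, other pseudocounts of the ratios, and each library left out in turn. A gene among those most like *Hes1* and a promoter stretch are not reported here.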

Additional observations from a re-analysis of the deposited data

Results flagged for a closer look

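For 5 of the 10 Notch genes, beside 20.8% of all genes, the difference between organoids and 2D-cultured TECs was not the same on the 2 organoid days. Both days are set against the same 2D libraries, so the difference between them is D7 over D3 organoids, as tested with edgeR. On the log2 scale *Dll4* over 2D was 0.69 at D3, which was not called (edgeR adjusted p = 0.62), and 5.05 at D7. The difference was 4.36 (edgeR adjusted p = 1.1e-05). Both values over 2D rest on 3 counts in 2D, and D3 organoids had only 1 and 5 counts. *Heyl* was −2.08 at D3 and 1.25 at D7, a difference of 3.32 (edgeR adjusted p = 0.0024). Its D7 value over 2D was not called (edgeR adjusted p = 0.083). *Hey1* was above 2D on both days, by 2.63 and 3.36, a difference of 0.73 (edgeR adjusted p = 0.0035). *Hes1* over 2D was −0.50 at D3, which was not called (edgeR adjusted p = 0.073), and −1.83 at D7. The difference was −1.33 (edgeR adjusted p = 0.00045). *Notch2* was below 2D by −0.59 and −1.18, a difference of −0.59 (edgeR adjusted p = 0.045). The *Notch2* call was lost without any 1 of the 2D, D3 or D7 libraries (edgeR adjusted p up to 0.33). In each of the 5 genes the 2 D7 libraries lay on 1 side of the 2 D3 libraries, as they did for 64.7% of all genes tested.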

How the results depend on the processing

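No log2 fold change of the 10 genes that was called in any comparison changed sign under the alternatives or with a library left out. Of the values recomputed for single genes, 951 kept their side of the threshold, 30 lost it and 8 gained it. Fits without a library were also used for calls, although values alone had been planned there, and a lone library was then assumed to vary like the other groups. When calls also needed an absolute log2 fold change of at least 1, 5 genes were called between *in vivo* TECs and D7 organoids, 5 between *in vivo* TECs and D3 organoids and 3 between D7 and D3 organoids, since smaller changes are then not counted. With a library left out, 5 to 8 genes were called between *in vivo* TECs and D7 organoids, and 5 was the count without *in vivo* replicate 2. The sign varied for 6 values that were not called, among them *Dll4* in D3 organoids over 2D, which ranged from −0.63 to 4.60 with a library left out. The exact permutation test of the *Jag2* to *Dll4* ratio gave an adjusted p of 0.019 to 0.19 with a library left out. Libraries with the same replicate number deviated together only weakly (r = 0.0257 to 0.132 across genes), and the labels give them no shared source. With the replicate number as a block, the exact permutation tests of both ratios gave an adjusted p of 0.083 (the smallest raw p this test can give is 0.042), the calls over all genes stayed within 1.5 times, and of the 10 genes *Hes1* in D3 organoids over 2D gained a call (edgeR adjusted p = 0.022). That value also gained it with limma-voom (adjusted p = 0.047), with no filter (edgeR adjusted p = 0.024) and in 3 fits without a library. With no normalization beyond library size the median of all genes was 0.23 for *in vivo* TECs over 2D, 0.31 for D7 and 0.29 for D3 organoids over 2D, and the calls of *Notch2* and *Heyl* in D3 organoids over 2D were lost (edgeR adjusted p = 0.21 and 0.060). *Heyl* in D7 organoids over 2D gained a call there (edgeR adjusted p = 0.047). Depth limits *Dll4* in 2D and D3 organoids and *Heyl* in D3 organoids most.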
